A study of Mus musculus with 8 samples.

Results

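Small nucleolar RNA (snoRNA) genes were read in the livers of C57BL6 mice on 8 Affymetrix Mouse Gene 1.0 ST arrays, a 1-colour platform. The members were all genes whose symbol begins with Snord, Snora or Scarna followed by a digit, each read from a probe set annotated with that gene alone. They came to 54 of the 19938 genes measured: 31 box C/D genes (Snord), 20 box H/ACA genes (Snora) and 3 genes of Cajal body RNAs (Scarna). The hydrogen water group (4 arrays) came from mice that drank hydrogen water for 4 weeks from the age of 7 weeks, and the control group (4 arrays) from mice whose drinking water the labels do not describe. All livers were taken after 17 h of fasting from animals kept at 24 °C, with lights on for 12 h a day. The treatment text of the labels is the same for all 8 samples, controls included, so the groups rest on the sample titles and descriptions. The series record states a comparison of 4 control and 4 hydrogen water mice, though no sample label says in so many words that the 8 arrays are 8 animals. The p-values below measure the spread between these samples, taken as separate mice, and that spread may be partly technical.

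SnoRNAs are short, stable RNAs of the nucleolus that pair with other RNAs and guide their chemical modification. Box C/D snoRNAs carry the methyltransferase fibrillarin to the ribose to be methylated, and box H/ACA snoRNAs carry dyskerin to the uridine to be turned into pseudouridine, mostly in ribosomal RNA (rRNA). Cajal body RNAs have the same boxes but guide changes in spliceosomal RNAs. A few members, such as U8, U14, U17 and U22, act in the cutting of the rRNA precursor. Most mammalian snoRNAs are released from the introns of host genes, many of which encode ribosomal proteins or are non-coding genes whose exons have little known use. The liver, which makes most plasma proteins, needs a large supply of ribosomes.

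The sequences below are microRNA hairpins that overlap snoRNA genes, and the starts of host genes. They are from RefSeq on GRCm38.p6, 5′ to 3′, and the snoRNA genes themselves were in none of the sequence tables used. Of the 54 members, 2 overlapped an annotated microRNA hairpin, printed as RNA with the bases shared with the snoRNA gene in capitals. The hairpin of Mir5121 (chr7:45126918-45126991, minus strand) shares 28 of its 74 bases with Snord33, a box C/D snoRNA in the ribosomal protein gene Rpl13a. The shared bases hold UGAUGA, the core of box C, from base 53 of the hairpin. These letters, read on the hairpin's own strand, occur in 27 of the 1005 mouse hairpins, or 2.69%.
Mir5121: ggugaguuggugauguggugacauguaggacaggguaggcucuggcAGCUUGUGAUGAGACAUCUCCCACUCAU
The hairpin of Mir3069 (chr12:105031077-105031141, minus strand) lies wholly inside Scarna13, a Cajal body RNA of 275 bases in the non-coding gene Snhg10, and is thus all in capitals.
Mir3069: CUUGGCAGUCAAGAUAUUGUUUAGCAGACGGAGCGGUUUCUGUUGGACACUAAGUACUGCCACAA

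Many snoRNA hosts in vertebrates begin their transcripts with a C followed by a run of C and T, the terminal oligopyrimidine tract of genes for the translation machinery. A run of this kind was searched on the gene's own strand as a C within 5 bases of the annotated start, followed by at least 5 letters that were each C or T. It was found in 10 of the 33 hosts that had a promoter entry (30.3%), against 2976 of the 27025 genes with one. A match is a description of these letters only. The windows below run from 40 bases before the start to 15 after it, with the run in capitals, for hosts of members described further on. Rack1, the ribosome-bound scaffold protein gene that hosts Snord95 and Snord96a, lies at chr11:48800320-48800374 (plus strand). Rplp2, a ribosomal stalk protein gene that hosts Snora52, lies at chr7:141447611-141447665 (plus strand). The non-coding gene 2410006H16Rik, host of Snord49a and Snord49b, lies at chr11:62602837-62602891 (plus strand). The non-coding gene Snhg12, host of Snora16a and Snora44, lies at chr4:132308638-132308692 (plus strand). In Nop56 (chr2:130274372-130274426, plus strand), which encodes a core box C/D protein and hosts Snord57, no such run was found in this window.
Rack1: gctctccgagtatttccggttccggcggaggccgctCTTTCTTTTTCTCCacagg
Rplp2: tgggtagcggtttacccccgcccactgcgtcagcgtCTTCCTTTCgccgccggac
2410006H16Rik: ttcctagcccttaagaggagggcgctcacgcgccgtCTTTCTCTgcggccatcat
Snhg12: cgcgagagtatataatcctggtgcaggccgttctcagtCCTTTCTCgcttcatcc
Nop56: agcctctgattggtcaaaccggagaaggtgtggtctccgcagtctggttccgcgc

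Correlations between arrays over the 19938 genes lay between 0.988 and 0.995. The 7 hepatocyte markers had mean log2 signals between 12.58 and 14.43, near the top of the range. In whole liver, fewer cells of a type and less RNA per cell cannot be told apart. With 4 arrays a group, precision is limited throughout.

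The snoRNA genes covered nearly the whole signal range of the array. Box C/D genes had mean log2 signals between 3.09 and 13.81 with a median of 7.75, and box H/ACA genes between 4.13 and 12.62 with a median of 8.99. The Cajal body RNAs stood at 10.63 (Scarna17), 9.56 (Scarna13) and 4.91 (Scarna8). The median over all genes was 5.87, and 10 of the 54 members were below it: 8 box C/D genes, Snora75 and Scarna8. Signals of different probe sets also depend on the probes, so these values give no order of abundance. The brightest box C/D probe sets were those of Snord104 and Snord49b, guides of large-subunit rRNA methylation in human, of Snord118 (the U8 RNA, needed for large-subunit rRNA), of Snord57, a guide for the small subunit in human, and of Snord82. The brightest box H/ACA probe sets were those of Snora52 and Snora7a, guides for large-subunit rRNA in human, of Snora16a, and of Snora73a and Snora73b, the U17 RNAs that act in small-subunit processing.

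Within a group, the snoRNA genes varied more from array to array than the median gene did. The within-group SD, pooled over both groups, had a median of 0.57 on the log2 scale in box C/D genes, 0.54 in box H/ACA genes and 0.52 in Cajal body RNAs, against 0.18 over all genes. It was above the all-gene median in 53 of the 54 members. Without hydrogen water 4, the medians were 0.41, 0.32 and 0.39 in the same order, against 0.17 over all genes. The SD was smaller without that array in 49 of 54 members, a count that was not made over all genes. Without both hydrogen water 4 and control 3 it was 0.29 for box C/D, 0.26 for box H/ACA and 0.31 for Cajal body RNAs, against 0.15 over all genes. These are descriptions, because the members were chosen with the spread on hydrogen water 4 already known.

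**Figure D1:**
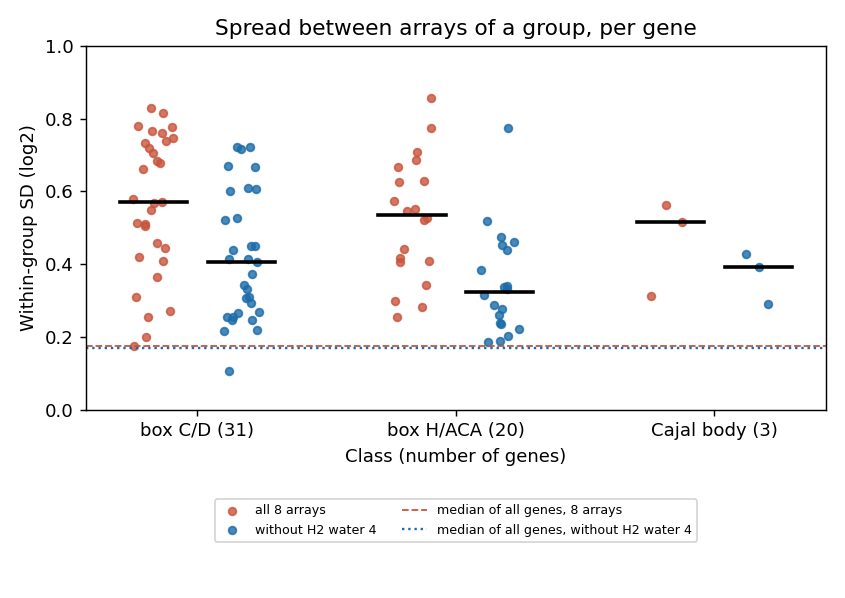
Within-group SD of log2 signal (vertical axis) for each snoRNA gene, by class, over all 8 arrays (red) and without hydrogen water 4 (blue); black bars are class medians and the lines are the medians of all genes. The class medians lie between 0.52 and 0.57 with all arrays and between 0.32 and 0.41 without hydrogen water 4, against 0.18 and 0.17 for all genes.

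Much of that spread was seen on a single array. Taking each gene's deviation as its log2 signal minus its median over the 8 arrays, the median box C/D gene stood at 0.11, 0.24, −0.03 and −0.93 on hydrogen water 1 to 4, and at −0.13, 0.22, −0.46 and 0.15 on control 1 to 4. The median box H/ACA gene stood at 0.26, 0.01, −0.17 and −1.08 on the hydrogen water arrays and at 0.08, 0.16, −0.12 and 0.06 on the control arrays. Hydrogen water 4 was thus the lowest array for both classes, and control 3 came next for box C/D. For the Cajal body RNAs the deviation was 0.00, −0.05, 0.18 and −0.55 with hydrogen water and 0.57, 0.34, −0.12 and −0.00 in controls.

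**Figure D2:**
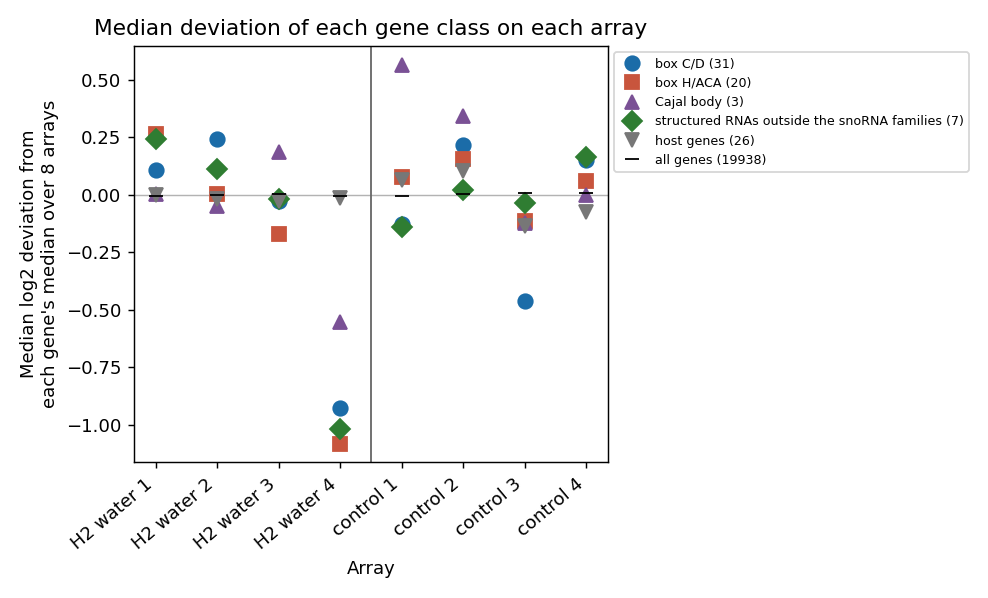
Median deviation (log2 signal minus each gene's median over the 8 arrays) of each gene class on each array; hydrogen water arrays are left of the vertical line and controls right of it. On hydrogen water 4 the box C/D, box H/ACA and structured RNA classes lie at −0.93, −1.08 and −1.02, while the host genes lie at −0.01.

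Counted gene by gene, hydrogen water 4 carried the lowest of the 8 values in 36 of 54 members (66.7%), against 15.8% of all genes. The count was 19 of 31 for box C/D, 15 of 20 for box H/ACA and 2 of 3 for Cajal body RNAs. Control 3 carried the lowest value in 13 members (24.1%), of which 10 were box C/D, against 18.4% of all genes. In 32 of 54 members (59.3%) hydrogen water 4 lay at least 1 below the mean of its own group's other 3 arrays on the log2 scale, against 0.326% of all genes. The same was seen for control 3 in 11 members (20.4%), against 0.487% of all genes. The median gap on hydrogen water 4 was −1.09, and it ranged from −2.31 for Snora33 to 0.98 for Snord37. Across the 54 members this gap correlated with the gene's mean signal at r = −0.44 and with its RefSeq length at r = −0.22, so brighter probe sets tended to lie further below. All members share the same 8 arrays, and these values describe them only.

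Snora33, a guide of large-subunit pseudouridine in human, shows the pattern at its widest. Its log2 signal was 9.95, 10.10, 9.77 and 7.63 on hydrogen water 1 to 4, against 8.88, 9.33, 9.60 and 9.64 on control 1 to 4. The first 3 hydrogen water arrays lay above every control and the last lay below every control. The difference between the group means, hydrogen water minus control, was 0.00 (SE 0.44), and 0.58 without hydrogen water 4. Snord118 was similar, at 12.66, 12.79, 12.81 and 10.78 with hydrogen water and 12.03, 12.15, 12.79 and 12.45 in controls. Its difference was −0.09 (SE 0.38), and 0.40 without hydrogen water 4. Snord49b stood at 13.19, 13.36, 13.17 and 11.71 with hydrogen water and at 12.95, 13.25, 12.14 and 13.27 in controls. Here both low arrays are seen in 1 gene, hydrogen water 4 and control 3, and the difference was −0.05 (SE 0.34).

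Not every member was low on hydrogen water 4. It was the highest of the 8 arrays for 4 of the 54 members, against 3304 of all 19938 genes. The 4 were box C/D genes: Snord14e in the heat shock cognate gene Hspa8, Snord95 and Snord96a in Rack1, and Snord37 in the elongation factor gene Eef2. Snord95, Snord96a and Snord37 had mean log2 signals of 5.03, 4.45 and 4.38, below the all-gene median of 5.87. Hspa8 and Eef2 themselves were also highest on hydrogen water 4, at 13.80 and 13.30, while Rack1 was not among the genes measured alone. Of the 26 hosts measured, 6 were highest on that array. Snord37, a guide for large-subunit rRNA in human, had 4.25, 4.02, 4.35 and 5.19 with hydrogen water, against 4.62, 4.55, 3.80 and 4.28 in controls. Apart from the high value on hydrogen water 4 its groups overlapped, and the difference was 0.14 (SE 0.24).

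**Figure D3:**
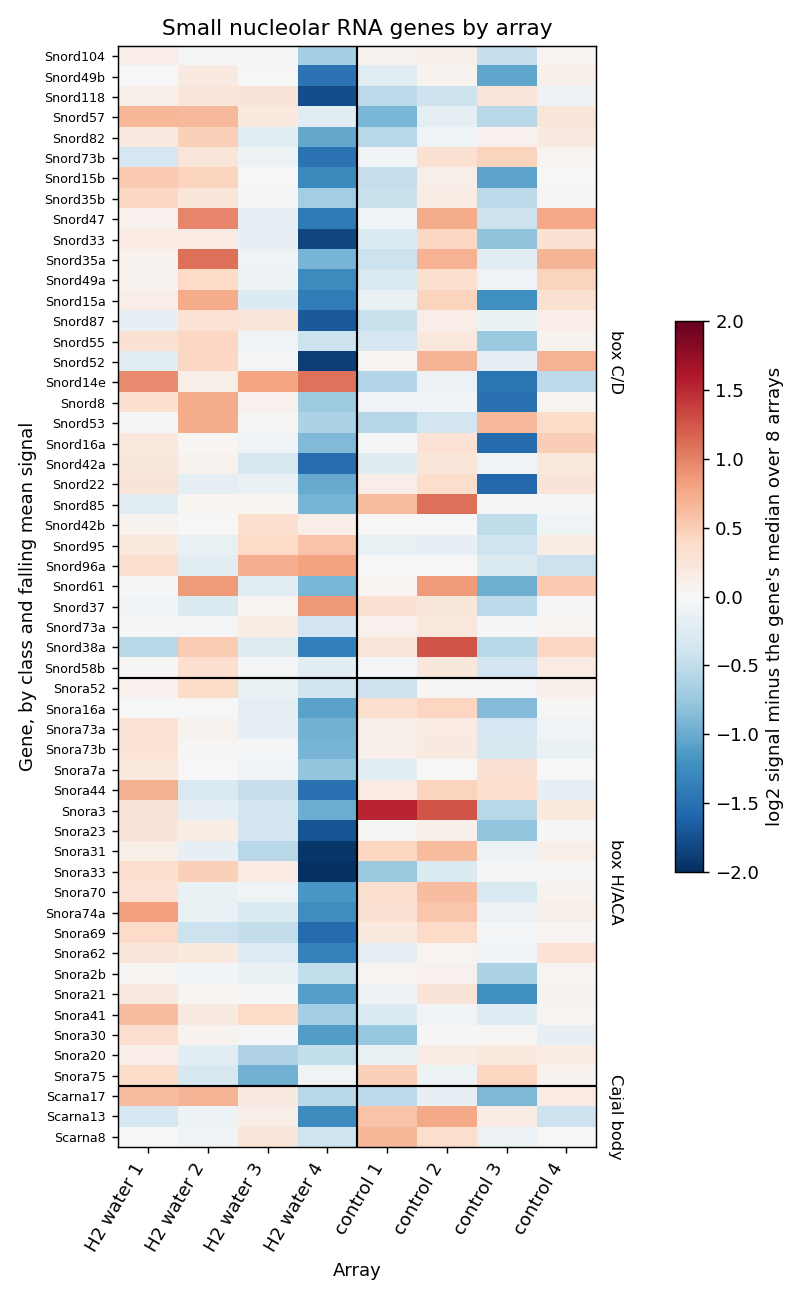
Deviation of each snoRNA gene (rows, by class and falling mean signal) on each array (columns, hydrogen water left of the line), as log2 signal minus the gene's median over the 8 arrays, in blue below and red above. The hydrogen water 4 column holds the lowest value of 36 of the 54 genes and the control 3 column that of 13.

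Structured RNAs outside the snoRNA families were also low on hydrogen water 4. Of 9 structured RNAs listed, 7 were measured, and all 7 had their lowest value there. Their median deviations were 0.24, 0.11, −0.02 and −1.02 with hydrogen water, against −0.14, 0.02, −0.04 and 0.16 in controls. Rmrp, the RNA of the RNase MRP that cuts the rRNA precursor, had 12.80, 12.43, 12.48 and 11.44 with hydrogen water, against 12.32, 12.48, 12.43 and 12.52 in controls. Terc, the telomerase RNA, which has a box H/ACA domain, had 9.14, 9.23, 8.50 and 8.10 with hydrogen water and 8.58, 8.77, 8.81 and 9.34 in controls. The span was widest for Rny1, an RNA of the Ro particle, at 4.82 on hydrogen water 4 and between 6.74 and 7.33 on the other 7 arrays. It was narrow for Rn7sk, an RNA that holds back transcription elongation, at 14.14 on hydrogen water 4 and between 14.20 and 14.36 elsewhere. Rpph1, the RNA of RNase P, stood at 13.58 on hydrogen water 4 and between 14.03 and 14.36 elsewhere. Rn7sk and Rpph1 lay near the highest mean of any gene on the array, 14.43, and Rny1 far below it. The part of signal level in these spans was not tested.

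Host and protein genes of the pathway stood nearer to 0 on that array. On hydrogen water 4 the median deviation was −0.01 for the 26 host genes measured, 0.19 for the 4 core box C/D protein genes, −0.14 for the 4 core box H/ACA protein genes and 0.09 for 34 genes of rRNA processing and RNA polymerase I. It was −0.31 for 60 ribosomal protein genes, which stood at −0.34 on control 3, and −0.05 for 296 microRNA genes. Cell type markers were read on the same arrays. The summed linear signal of the 8 Kupffer cell markers was 1735 on hydrogen water 4, the highest of the 8 arrays. It ranged from 995 to 1735 with hydrogen water and from 823 to 1221 in controls, and all 8 markers had a higher mean with hydrogen water, by 0.35 at the median. Without hydrogen water 4 this median was 0.21, with 7 of the 8 higher. The summed signal of the 7 hepatocyte markers was also highest on hydrogen water 4, at 115503. It ranged from 108635 to 115503 with hydrogen water and from 107989 to 110685 in controls. The 8 sinusoidal endothelium markers also all had a higher mean with hydrogen water, by 0.33 at the median. Their sums ranged from 2631 to 4162 with hydrogen water and from 2299 to 3352 in controls. On hydrogen water 4 the sum was 3185, inside the control range, and hydrogen water 2 had the highest. Other cell types went the other way: 4 of 6 stellate cell markers were lower with hydrogen water (median −0.13), as were 3 of 4 cholangiocyte markers (median −0.23). The part of these cell markers, or of RNA quality or size, in the snoRNA values was not tested.

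For hydrogen water against control, 0 of the 54 snoRNA genes passed the test (limma with Benjamini-Hochberg adjustment over 19938 genes, adjusted p under 0.05), as did 0% of all genes. The lowest adjusted p among the members was 0.558, that of Snord14e. At an unadjusted p under 0.05, 4 members were higher with hydrogen water (7.41%, against 3.6% of all genes) and 6 were lower (11.1%, against 3.57% of all genes), together 10 members where 7.17% of all genes reached that p in either direction. The 4 higher were all box C/D: Snord14e, Snord96a, Snord57 and Snord95. The 6 lower were Snord85, the box H/ACA genes Snora31, Snora20, Snora3 and Snora69, and Scarna13.

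The class medians moved with hydrogen water 4 as well. With all arrays, the median difference (hydrogen water minus control, log2) was −0.05 for box C/D, with 13 genes higher and 18 lower. It was −0.27 for box H/ACA, with 5 higher and 15 lower, and −0.27 for Cajal body RNAs, with 1 higher and 2 lower. The median over all genes was −0.00. Without hydrogen water 4 the medians were 0.20 for box C/D (24 higher, 7 lower), 0.03 for box H/ACA (11 higher, 9 lower) and −0.15 for Cajal body RNAs. In all, 13 box C/D and 6 box H/ACA genes changed sign. Sign changes were not counted over all genes, of which 9715 were higher with all arrays and 9704 without hydrogen water 4. Without control 3 the medians were −0.22, −0.35 and −0.38 for the classes in that order, and without both arrays −0.01, −0.07 and −0.27. The box C/D median was also positive without control 2 (0.06) and without control 4 (0.07). Of the arrays left out singly, the box H/ACA median changed sign for hydrogen water 4 only.

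The counts at an unadjusted p under 0.05 depended on it too. Without hydrogen water 4, 10 members were higher with hydrogen water (18.5%, against 2.74% of all genes) and 1, Snora31, was lower (1.85%, against 2.84%). The members were already known to be low on that array, so leaving it out raised most of their hydrogen water means. These shares are thus a description and no test. The 10 were Snord118, Snord57, Snord15b, Snord35b, Snord14e, Snord8, Snord96a, Snora33, Snora41 and Scarna17. The lowest adjusted p in limma was then 0.785 among them, so 0 passed. The median half-width of a member's 95% interval, before adjustment, was 0.63 with all arrays, and smaller differences could not be told from 0 for such a gene.

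**Figure D4:**
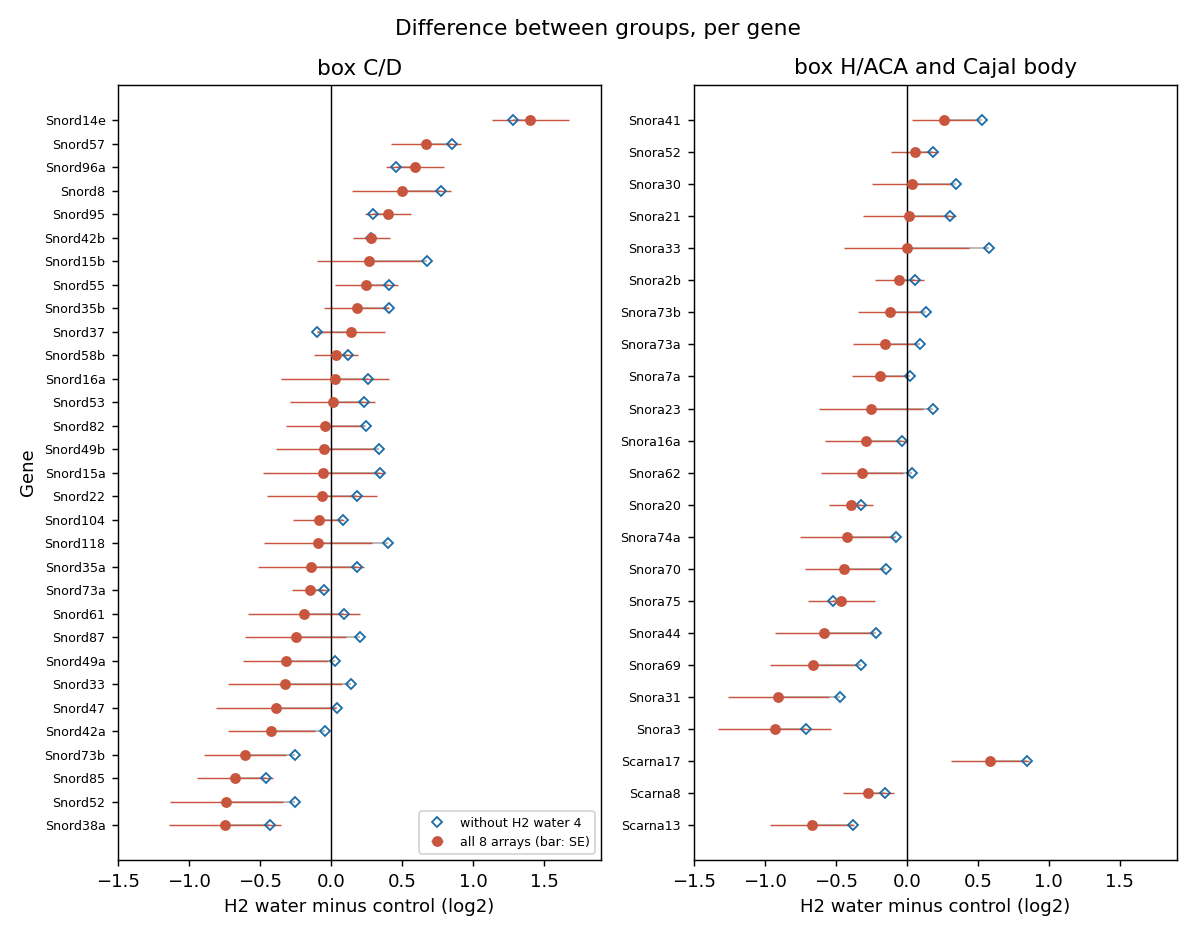
Difference in log2 signal, hydrogen water minus control, for each gene of box C/D (left) and of box H/ACA and Cajal body RNAs (right), with all 8 arrays (red, bars show the SE) and without hydrogen water 4 (open blue). Most open points lie right of their red ones, and Snord14e lies apart at 1.40.

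Snord14e (transcript cluster 10584580), a copy of U14, which acts in small-subunit rRNA processing, had the largest difference of the 54. Its log2 signal was 8.29, 7.46, 8.13 and 8.44 with hydrogen water, against 6.76, 7.23, 5.88 and 6.82 in controls. All 4 hydrogen water values lay above all 4 control values, which was the case for this member alone (1.85%), against 1.76% of all genes; 0 members lay wholly below, against 2.01% of all genes. It averaged 8.08 ± 0.43 with hydrogen water and 6.67 ± 0.57 in controls (SD, n = 4 each), a difference of 1.40 (SE 0.27, limma adjusted p = 0.558). It was also the only member that differed by at least 1, as did 0.0652% of all genes. Leaving out hydrogen water 4 gave 1.28, and over 18 alternatives the difference lay between 1.02 and 1.61, with an adjusted p between 0.13 and 0.98.

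The other U14 copies of Hspa8 read alike. A pair of probe sets annotated to Snord14d, Snord14c and Hspa8 together, not counted among the 54, had 8.95, 8.44, 8.58 and 9.10 with hydrogen water and 6.72, 7.44, 6.24 and 7.73 in controls. Again the groups did not overlap, and the difference was 1.73 (SE 0.28). With such rows added, limma gave an adjusted p of 0.497 over 20454 genes. The copies are similar in sequence, so the probe sets may read some of the same RNA. Hspa8 itself, which encodes a constitutive Hsc70 chaperone, had 13.56, 13.53, 13.49 and 13.80 with hydrogen water and 13.45, 13.51, 13.65 and 13.26 in controls. These groups overlapped, with a difference of 0.12 (SE 0.12). Snord14a, read together with its host Rps13, differed by −0.02 (SE 0.21).

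Among the other box C/D guides, Snord57 stood at 12.91, 12.89, 12.44 and 12.02 with hydrogen water, against 11.34, 12.06, 11.70 and 12.49 in controls. The first 2 hydrogen water arrays were the highest of the 8, but control 4 lay above hydrogen water 3 and 4. The difference was 0.67 (SE 0.25, limma adjusted p = 0.660), while its host Nop56 differed by 0.02 (SE 0.19). Snord96a had 4.66, 4.12, 5.06 and 5.14 with hydrogen water and 4.32, 4.35, 4.04 and 3.91 in controls, with hydrogen water 2 inside the control range. Its difference was 0.59 (SE 0.20), and that of Snord95 from the same host was 0.40 (SE 0.16). Both lie below the median signal of the array. Snord42b, a guide for the small subunit in human, differed by 0.28 (SE 0.13).

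On the lower side, Snord85 had 5.95, 6.21, 6.22 and 5.24 with hydrogen water and 6.80, 7.27, 6.13 and 6.14 in controls. Only controls 1 and 2 lay clear of the hydrogen water values, and the difference was −0.68 (SE 0.27, limma adjusted p = 0.687). Snord38a, Snord52 and Snord73b, which guide large-subunit methylation in human, differed by −0.75 (SE 0.39), −0.74 (SE 0.40) and −0.60 (SE 0.29). Without hydrogen water 4 these were −0.43, −0.26 and −0.25. Snord42a differed by −0.42 (SE 0.30), and by −0.04 without that array. Snord15a and Snord47, guides of large-subunit methylation in human and among the 3 most variable box C/D genes, differed by −0.05 (SE 0.43) and −0.39 (SE 0.42), with within-group SDs of 0.83 and 0.82.

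The snoRNAs of Rpl13a are known from work in mammalian cells and mice for a part in the response to lipid overload and oxidative stress. Snord33 had 9.71, 9.70, 9.39 and 7.72 with hydrogen water and 9.27, 9.96, 8.75 and 9.85 in controls. Snord35a had 8.99, 10.01, 8.84 and 7.99 with hydrogen water and 8.49, 9.61, 8.70 and 9.59 in controls. In both genes hydrogen water 4 was the lowest array and the groups otherwise overlapped. The differences were −0.33 (SE 0.40) for Snord33 and −0.14 (SE 0.37) for Snord35a, and 0.14 and 0.18 without hydrogen water 4. Rows that name Rpl13a beside the snoRNA gave −0.18 (SE 0.32) for Snord32a and −0.60 (SE 0.44) for Snord34.

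Of the box H/ACA genes, Snora3 in Rpl27a had the most negative difference. It stood at 10.70, 10.26, 10.07 and 9.45 with hydrogen water and at 11.97, 11.71, 9.89 and 10.63 in controls. Controls 1 and 2 lay above all hydrogen water arrays, controls 3 and 4 among them. The difference was −0.93 (SE 0.40, limma adjusted p = 0.687), and −0.71 without hydrogen water 4. Snora31, in the gene of the translationally controlled tumour protein Tpt1, had 9.85, 9.58, 9.19 and 7.80 with hydrogen water and 10.17, 10.38, 9.63 and 9.86 in controls. Only hydrogen water 1 reached into the control range; the difference was −0.90 (SE 0.36, limma adjusted p = 0.687) and −0.47 without hydrogen water 4, and Tpt1 differed by −0.05 (SE 0.10).

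Snora69 in Rpl39 differed by −0.66 (SE 0.30), and by −0.32 without hydrogen water 4. Snora20 and Snora75, guides for the small subunit in human, depended less on that array, with −0.39 (SE 0.15) and −0.46 (SE 0.24) over all arrays and −0.33 and −0.52 without it. For both, hydrogen water 3 was the lowest array. Snora41, also a small-subunit guide in human, differed by 0.26 (SE 0.23), and its host Eef1b2, an elongation factor subunit, by −0.29 (SE 0.11). The U17 RNAs Snora73a and Snora73b differed by −0.15 (SE 0.22) and −0.12 (SE 0.22). Snora52, the brightest of its class, had 12.75, 13.04, 12.53 and 12.27 with hydrogen water and 12.26, 12.69, 12.64 and 12.77 in controls. Its groups overlapped, with a difference of 0.06 (SE 0.17).

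The Cajal body RNAs differed in sign among themselves. Scarna17, a guide for U4 and U12 spliceosomal RNA in human, had 11.31, 11.37, 10.88 and 10.14 with hydrogen water and 10.17, 10.53, 9.79 and 10.85 in controls. The first 3 hydrogen water arrays lay above all controls, and the difference was 0.59 (SE 0.27, limma adjusted p = 0.698), or 0.85 without hydrogen water 4. Scarna13, a guide for U2 and U5 in human, had 9.29, 9.52, 9.74 and 8.36 with hydrogen water and 10.19, 10.39, 9.78 and 9.21 in controls. Its difference was −0.67 (SE 0.30, limma adjusted p = 0.687) and −0.38 without hydrogen water 4. The probes of Scarna13 cover a gene that holds the whole Mir3069 hairpin printed above. Scarna8, a guide for U2 in human, differed by −0.27 (SE 0.18).

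**Figure D5:**
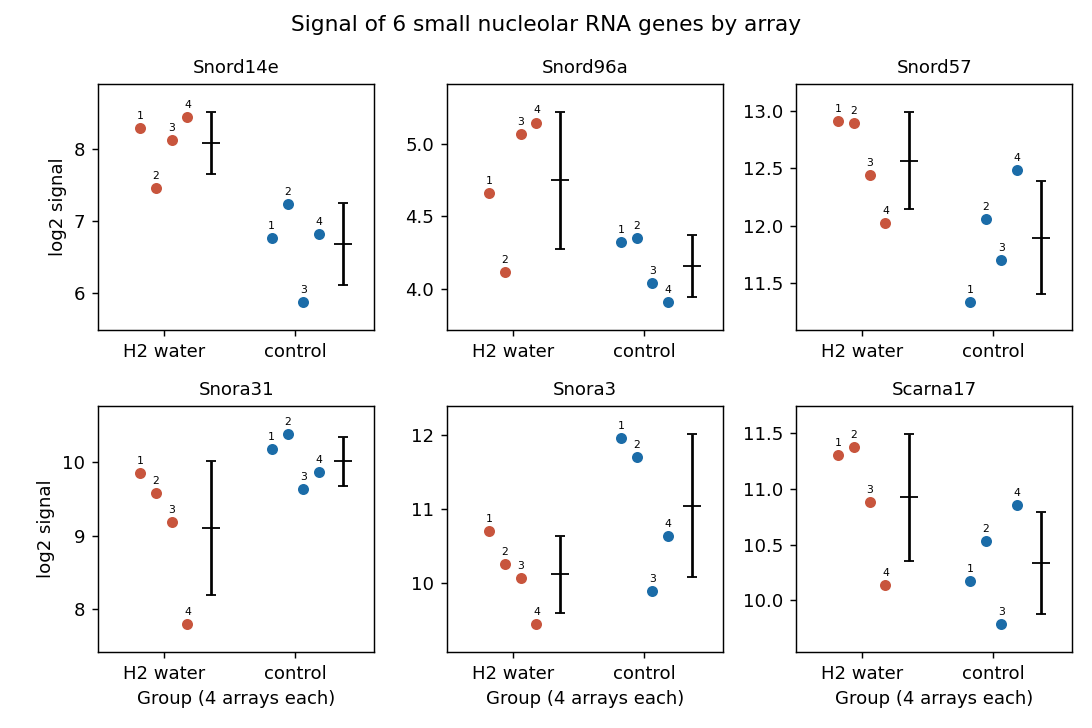
Log2 signal of 6 snoRNA genes on each array (points, numbered by replicate), hydrogen water left and control right in each panel, with the mean and SD (bars, n = 4 each); the vertical axes do not start at 0 and differ between panels. The groups are apart only for Snord14e; hydrogen water 4 is the lowest array for Snora31 and Snora3.

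Host genes varied less between arrays than the snoRNAs they hold. By RefSeq spans, without regard to strand, 53 of 54 members lay inside another gene; Snord118, which has its own promoter in human, lay in none. They had 46 hosts between them, 16 of which encode ribosomal proteins and hold 21 members, and 15 members lay in long non-coding genes. A measured host was at hand for 30 members. The within-group SD was larger for the snoRNA than for the host in 28 of these 30, and the median host SD was 0.21. Host differences ranged from −0.29 to 0.35 with a median of −0.01, and 19 of 30 had the sign of their snoRNA. Of the 26 hosts measured, 6 (23.1%) had their lowest value on hydrogen water 4, against 15.8% of all genes. On control 3 it was 11 (42.3%), against 18.4% of all genes. One of the 6 was the non-coding gene Gas5, which had the largest SD of the measured hosts (0.60). It stood at 10.11, 10.74, 10.06 and 9.02 with hydrogen water and at 9.88, 10.44, 9.62 and 10.56 in controls. Its snoRNA Snord47 was also lowest on hydrogen water 4, at 7.95.

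Members of the same host could be compared directly, since 10 hosts held 2 members each. The differences had the same sign in 7 of the 10 pairs, and the median gap between them was 0.31. It was smallest, at 0.04, for Snora73a and Snora73b in Snhg3, which are near copies. In Rpl23a, Snord42b differed by 0.28 and Snord42a by −0.42. In 6 of the 10 pairs both members had their lowest value on the same array. That array was hydrogen water 4 each time, which was the lowest for 36 of the 54 members (66.7%) whatever their host.

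No protein gene of the pathway passed the test (limma, adjusted p) in either direction, out of 4 core box C/D proteins, 4 core box H/ACA proteins, 11 assembly factors, 14 Cajal body proteins, 19 genes of intron debranching and RNA decay, and 34 of rRNA processing and RNA polymerase I. At an unadjusted p under 0.05, 0 were higher, and 1 Cajal body gene (Coil, the coilin gene, −0.42, SE 0.14), 2 RNA decay genes (the exosome subunit Exosc8, −0.48, SE 0.16, and Rbm7, −0.35, SE 0.13) and 2 genes of rRNA processing and RNA polymerase I (Polr1d and Tbl3) were lower, where 3.6% of all genes were higher and 3.57% lower at that p. Fbl, the fibrillarin gene, ranged from 9.11 to 9.57 with hydrogen water and from 8.37 to 9.32 in controls. The groups overlapped, and the difference was 0.32 (SE 0.20). The other core box C/D proteins differed by 0.02 (SE 0.19, Nop56), 0.09 (SE 0.19, Nop58) and −0.03 (SE 0.14, Snu13). For box H/ACA, Dkc1, which encodes dyskerin, differed by −0.17 (SE 0.16), Nhp2 by −0.26 (SE 0.26), Nop10 by −0.17 (SE 0.11) and Gar1 by 0.33 (SE 0.19). All 4 box C/D core genes had their lowest value on control 3. Of the 24 non-coding snoRNA hosts listed, 9 were measured and 0 passed.

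Probe sets annotated with more than 1 symbol were kept out of the 54 and are given for completeness. There were 41 such rows with a snoRNA among their symbols, of which 22 had values of their own. Hydrogen water 4 was the lowest array in 16 of the 22, against 15.8% of all genes. Of the 22, 7 came from the single Snord116 cluster, so they are not separate cases. The Snord116 cluster, imprinted and best known from brain and from Prader-Willi syndrome, had 24 rows, 18 of them identical. Those 18 read 7.28, 6.77, 6.38 and 5.63 with hydrogen water and 6.19, 6.52, 6.04 and 6.34 in controls. The difference over the 24 rows lay between 0.15 and 0.26, and hydrogen water 4 was the lowest in all 24. Neuron markers, 6 of 6 measured, had mean log2 signals between 3.83 and 7.35. Among the 54, 6 genes had more than 1 row of their own, and in 3 of them (Scarna17, Snora30 and Snord118) the rows agreed to within 0.005.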

How the data were processed

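Liver RNA was extracted with RNeasy Mini and amplified and biotin-labelled with the Ambion WT Expression kit, per the labels' protocols. The authors deposited 1 table of log2 signals per probe set and array, which the submitters' processing notes credit to Affymetrix Expression Console. Software version, normalization and genome build were not given in the sources used here, and the log2 scale was read from the values.

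Of 35556 probe sets, 21789 named 1 gene, 1621 several and 12146 none here. Entrez identifiers were used to bring symbols up to date with RefSeq (GRCm38.p6), which matched 19856 of 19938 genes. Each gene was read from its probe set with the highest mean. The 2 groups were compared by two-sided tests in limma 3.58.1 (R 4.3.3, lmFit then eBayes, no covariate), and p-values were adjusted by Benjamini-Hochberg over all genes. There were 6 residual and 5.88 prior degrees of freedom. The test of hydrogen water against control was tried on simulated data (19938 genes, 200 changed per run), and it recovered 38.2% of changes of 0.5, 89.2% of 1, 96.8% of 1.5 and 99.6% of 2, with 5.99% of calls false. The changed genes were drawn from all genes, with noise independent between genes. The snoRNA genes had a median within-group SD of 0.55, against 0.18 over all genes, and many were low together on hydrogen water 4. These shares therefore do not apply to them.

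Members, lists and tests were chosen with earlier results of these data known. The genes named were, per class, those with the highest signal, the smallest unadjusted p in each direction and the largest spread, the rRNA processing, Rpl13a and Snord116 snoRNAs, core proteins, hosts and 4 structured RNAs; Snord8, Snord15b, Snord35b, Snord37, Gas5, Eef2, Rny1, Coil, Exosc8, Rbm7, Polr1d and Tbl3 were added after their values were seen. For 1 of the 10 pairs in a shared host, the host and the gap are not reported here. Lists received counts and medians, with no set test. Alternatives were a filter on dim genes, other handling of probe sets, quantile normalization, median centring, a trended variance, array weights, a block for replicate number, and each array, or both hydrogen water 4 and control 3, left out.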

Additional observations from a re-analysis of the deposited data

Results flagged for a closer look

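Within each group of 4 arrays, 36 named snoRNA genes and the medians of the 3 classes were searched for a single array standing far from the other 3 relative to the group's range. Of 78 groups looked at, 8 held such an array. Chance flags about 1 in 20 independent groups, but these genes share the same 8 arrays and some were named for a large spread, so the count is a description and no test. In 5 of the 8 it was hydrogen water 4, on the low side. Snord118 read 10.78 there, against 12.66 to 12.81 on the other hydrogen water arrays, and Snord49b read 11.71 against 13.17 to 13.36. Snord33 read 7.72 against 9.39 to 9.71, Snora33 read 7.63 against 9.77 to 10.10, and Snora21 read 5.63 against 6.69 to 6.91. In the controls, control 3 was low for Snord104, at 13.46 against 13.95 to 14.03, and for Snora23, at 9.60 against 10.38 to 10.49. Control 1 was low for Snora20, at 6.40 against 6.68 to 6.72.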

How the results depend on the processing

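Of 54 snoRNA genes, 0 passed the adjusted threshold under any alternative tried. Of 36 snoRNA genes named, 20 kept their sign over all alternatives that measured them and 16 did not, 12 of them without hydrogen water 4; the lowest adjusted p anywhere was 0.13, for Snord14e. With dim genes left out, 2 of 44 members were higher at an unadjusted p under 0.05, against 402 of 9969 genes. In the values reported, 4 members were higher. With a trended and robust variance 2 were lower, against 6 in the values reported and 697 of all 19938 genes. With every probe set, the median difference of the Cajal body RNAs was 0.16, against −0.27, since Scarna17 then counts more than once. With both hydrogen water 4 and control 3 left out, 9 were higher at that p, against 720 of 19938 genes. The median within-group SDs were then 0.29 (box C/D), 0.26 (box H/ACA) and 0.31 (Cajal body). Leaving out 1 array at a time gave 0 members past the adjusted threshold. At an unadjusted p under 0.05, 3 to 10 members were higher and 1 to 9 lower. Over all 19938 genes, 472 to 991 were higher and 486 to 916 lower. The count of 1 lower member was reached without hydrogen water 4, control 1 or control 2, and the 10 higher without hydrogen water 4. Median differences then ranged from −0.22 to 0.20 for box C/D, −0.43 to 0.03 for box H/ACA and −0.38 to −0.13 for Cajal body RNAs, and median SDs from 0.41 to 0.63, 0.32 to 0.58 and 0.39 to 0.56 in that order. No pairing by replicate number was seen over all genes. Deviations of same-numbered arrays correlated at −0.06, 0.06, −0.03 and −0.16, and those of differently numbered arrays at −0.17 to 0.18. These correlations were not computed for the snoRNA genes alone. With the replicate number as a block, 10 members were lower at an unadjusted p under 0.05, against 657 of 19938 genes. The Cajal body SD was then 0.31. Of all genes at an unadjusted p under 0.05, 718 were higher and 711 lower; quantile normalization gave 588 and 1179, and median centring 421 and 1177. Values of a member below the all-gene median of 5.87 lie close to the dim end, where detection could not be judged.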
